A study of Drosophila melanogaster with 2 samples.

Results

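Cuticle protein genes were taken as every gene whose symbol begins with Cpr and a number, Twdl, Lcp and a number, Ccp84 or Edg, which gave 123 of the 18164 annotated genes on the 6 chromosome arms used. Of these, 120 are protein-coding and 3 are annotated as pseudogenes (Lcp1Psi, Lcp65APsi and TwdlU). The Cpr family has 70 members, the Twdl family 26, the Lcp family 17, the Ccp84 group 7 and the Edg group 3. Binding of the CG12769 protein to their loci was measured by ChIP-seq in whole Drosophila melanogaster embryos, 10 to 24 h old and of both sexes. The embryos came from 1 transgenic line carrying CG12769 fused at its C-terminus to GFP, and chromatin was pulled down with an antibody against GFP. There is 1 group with 2 biological replicates, numbered 5 and 7, and no treated or untagged group is compared here. The embryos hold all tissues at once, so a peak does not say in which cells the protein was bound.

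The insect cuticle is an extracellular layer of chitin and protein that the epidermis, the tracheae and parts of the gut secrete at their apical surface. Drosophila embryos lay down their larval cuticle late in embryogenesis, and ecdysone pulses time each later moult. Most Cpr, Lcp, Ccp84 and Edg proteins carry a Rebers-Riddiford sequence, which binds chitin, while Tweedle (Twdl) proteins lack it and are known from body shape mutants. Many of these genes lie in tandem clusters that arose by duplication, so their sequences can be close to identical.

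A gene was called bound when the summit of a peak in the reproducible (IDR-thresholded) list lay within 500 bp of one of its transcription start sites (TSS) or inside the gene. The pooled list holds 30000 peaks, down to a value of 40.8. The 21426 of them that are not in the IDR list are called weaker here. No significance level was applied to them here. A peak's value is the signal value deposited by the authors. The scale of these values is unknown and need not be shared by the lists, so they were compared within a list only.

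Sequences at 6 members show the kinds of site described below, each read on the strand of its gene and centred on the summit. Cpr23B (chr2L:2837893-2837993) and TwdlP (chr3R:26621484-26621584) have their strongest summits upstream of the gene, and capitals mark the Grainyhead consensus AACCGGTT in Cpr23B.
Cpr23B: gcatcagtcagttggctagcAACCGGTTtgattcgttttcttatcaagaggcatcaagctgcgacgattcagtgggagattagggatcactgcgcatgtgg
TwdlP: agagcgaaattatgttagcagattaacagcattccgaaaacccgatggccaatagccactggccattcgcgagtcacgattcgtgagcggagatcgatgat
Cpr65Ea (chr3L:7086228-7086328) and Cpr78Cc (chr3L:21300930-21301030) have summits inside coding sequence, and capitals mark the codons of a Rebers-Riddiford core.
Cpr65Ea: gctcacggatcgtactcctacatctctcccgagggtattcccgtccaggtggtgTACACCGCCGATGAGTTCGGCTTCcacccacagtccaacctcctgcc
Cpr78Cc: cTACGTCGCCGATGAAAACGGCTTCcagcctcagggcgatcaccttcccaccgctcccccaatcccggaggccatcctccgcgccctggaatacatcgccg
Lcp65Ag3 (chr3L:6130715-6130815) and Lcp65Ag2 (chr3L:6133307-6133407) are related copies, and capitals mark the 90 bases that their windows share.
Lcp65Ag3: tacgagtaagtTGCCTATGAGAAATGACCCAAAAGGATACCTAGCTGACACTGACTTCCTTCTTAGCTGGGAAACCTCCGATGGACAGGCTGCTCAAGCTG
Lcp65Ag2: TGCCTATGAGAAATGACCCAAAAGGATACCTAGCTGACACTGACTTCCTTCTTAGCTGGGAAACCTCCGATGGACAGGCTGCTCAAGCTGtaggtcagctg

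Few cuticle protein genes were bound at the IDR level. An IDR summit lay at 16 of 123 members (13.0%, exact 95% interval 7.62 to 20.3), against 26.1% of all protein-coding genes. Within 500 bp of a TSS alone, the count was again 16 of 123, against 21.3% of protein-coding genes. Cuticle protein genes are short, with a median length of 957 bp against 2166 bp for all protein-coding genes, and 91.1% against 73.5% have 1 TSS. Set beside protein-coding genes with 1 TSS and at most 3000 bp, 13 of 102 such members were bound (12.7%, interval 6.96 to 20.8), against 11.5%. The low share of bound members was therefore seen beside all genes and not beside genes of like size.

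Over the whole set, weaker peaks were more frequent at these genes than at others of their size, but 2 clusters held much of the excess. A pooled summit of any strength lay at 43 of 123 members (35.0%, interval 26.6 to 44.1), against 38.9% of protein-coding genes. Within 500 bp of a TSS it lay at 39 of 123 (31.7%), against 34.9%. Among short genes with 1 TSS, 38 of 102 members had a pooled summit (37.3%, interval 27.9 to 47.4), against 23.1%. The excess lay in the weaker peaks. Weaker peaks alone were found at 27 of 123 members (22.0%, interval 15.0 to 30.3), against 12.9% of protein-coding genes. Among the short genes, 25 of 102 members had weaker peaks alone (24.5%, interval 16.5 to 34.0), against 11.6%. The 27 members were unevenly spread. The 2 largest clusters of neighbouring members, described below, hold 30 of the 123 members and 14 of the 27. A pooled summit lay at 24 of the other 93 members (25.8%), against 38.9% of protein-coding genes and 23.1% of short ones. Outside the 2 clusters the share was thus close to that of short genes. The intervals count neighbouring copies as independent.

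Both replicate lists gave similar counts. The replicate 5 list had a summit at 48 of 123 members (39.0%), against 41.6% of protein-coding genes. The replicate 7 list had one at 42 of 123 (34.1%), against 39.0%. Both lists had a summit at 39 members, replicate 5 alone at 9, replicate 7 alone at 3, and neither at 72. The 39 shared members are 76.5% of those with a summit in either list, against 78.5% for all protein-coding genes. Beside the 16 members with an IDR summit and the 27 with weaker summits only, 8 had a summit in 1 replicate list without one in the pooled list, and 72 had none in any list. Of these 8, 7 had their summit in the replicate 5 list, TwdlW at 135.9 and the other 6 between 19.1 and 38.9. Cpr47Ec had one of 28 in the replicate 7 list.

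**Figure D1:**
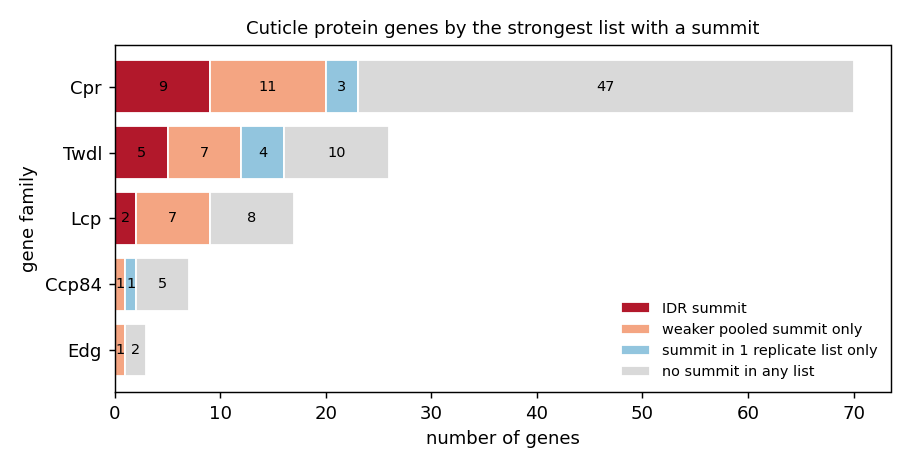
Number of genes in each family by the strongest list that has a summit within 500 bp of a TSS or in the gene. Horizontal bars are gene counts per family. IDR summits lay in the Cpr (9 of 70), Twdl (5 of 26) and Lcp (2 of 17) families, and at 0 of 7 Ccp84 and 0 of 3 Edg genes.

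The shares of members with an IDR summit had overlapping exact intervals in all 5 families. In the Cpr family 9 of 70 genes had an IDR summit (12.9%, interval 6.05 to 23.0), 11 had weaker summits only, 3 had one in a replicate list only and 47 had none. In the Twdl family these counts were 5, 7, 4 and 10 of 26, and in the Lcp family 2, 7, 0 and 8 of 17. The Ccp84 genes had 1 member with a weaker summit, Ccp84Ac (73.1), and the Edg genes likewise 1, Edg78E (164.7). With 7 and 3 genes, the exact intervals for a count of 0 reach 41.0% and 70.8%.

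The strongest summit of the set lay in the coding sequence of Cpr47Eg, 373 bp downstream of its TSS. Its value was 659.6 in the pooled list, 376.2 in the replicate 5 list and 282.7 in the replicate 7 list, at ranks 1124, 703 and 1907. A further IDR summit in the same short gene, 173 bp from the TSS, had a pooled value of 270.3. Cpr23B followed with 500.4 pooled, 188.7 in replicate 5 and 316.1 in replicate 7, at 468 bp upstream. The replicate 5 summit lay 39 bp from the pooled one and fell outside the 500 bp. The TSS of CG3119 lies closer to the pooled summit, at 110 bp.

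Among Tweedle genes, TwdlG had the highest value. It held 438.6 in the pooled list, 153.2 in replicate 5 and 286.1 in replicate 7, in a 5' UTR, and a further IDR summit of 190.2 upstream. TwdlP had 318.0, 142.3 and 183.1 at 170 bp upstream of its TSS. Both genes thus carried a peak at their promoter in each replicate list. TwdlN, with 276.7, 118.3 and 152.7, had its summit in coding sequence 192 bp from the TSS. TwdlD had 198.0, 95.1 and 108.7 at 276 bp upstream, where the TSS of lncRNA:CR46233 was nearer, at 234 bp. TwdlY had 178.3, 64.1 and 111.3 at 256 bp upstream. These last values lie near the lower end of the IDR list, which runs from 169.7 to 16058.3 with a median of 288.9.

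The other bound Cpr genes covered the same range. Cpr65Ea had 420.5 in the pooled list, 224.2 in replicate 5 and 204.3 in replicate 7, in coding sequence at 330 bp from its TSS. Cpr11A had 326.8, 114.6 and 228.1 at 306 bp upstream. Cpr78Cb had 279.4, 160.9 and 126.3 at 121 bp upstream, and a further IDR summit of 195.4. Promoter and coding positions thus occurred at similar values. Cpr78Cc had 246.6, 119.5 and 139.2 in coding sequence 400 bp from its TSS. Cpr57A had 196.8, 83.0 and 92.2 in coding sequence at 56 bp. Cpr51A was the lowest of the bound members, with 176.0, 61.6 and 31. Its replicate 7 peak ranked 26089 in its list, with a summit 101 bp away from the pooled one.

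Cpr73D is the longest bound member, at 18590 bp, and had 3 IDR summits of 404.6, 270.0 and 231.2. All 3 lay nearer to a TSS of Ogdh, a subunit gene of the mitochondrial oxoglutarate dehydrogenase, at 291, 47 and 45 bp. The values of these summits cannot be assigned to one gene over the other from position alone. Over the set, the nearest TSS was that of another gene at 5 of 21 IDR summits (1 at Cpr23B, 1 at TwdlD and 3 at Cpr73D). Counting each summit for the gene of its nearest TSS left 13 bound members, against 21.0% of protein-coding genes.

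**Figure D2:**
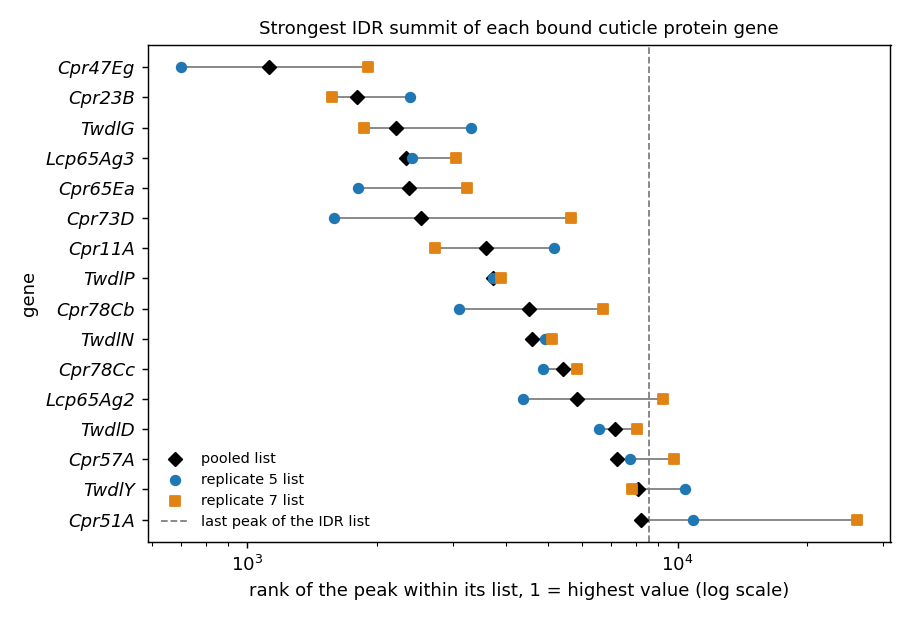
Rank of the strongest IDR summit of each of the 16 bound genes in the pooled list, and of the strongest peak that overlaps it in the replicate 5 and replicate 7 lists, on a log scale where 1 is the highest value. The dashed line marks the last rank of the IDR list. Cpr51A ranked 26089 in the replicate 7 list and 10838 in the replicate 5 list, and Cpr73D 5645 and 1595.

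The bound members did not reach the top of the list. The 21 distinct IDR summits at cuticle protein genes had a median value of 270.3 and spread over the IDR list, cut into 4 equal parts from the strongest down, as 2, 6, 7 and 6. All 21 overlapped a peak in both replicate lists, against 97.5% of all IDR peaks. The IDR list holds reproducible peaks, so this overlap was largely set by the list. It counts peak intervals and not summits: the replicate 7 summit at Lcp65Ag2 lay 258 bp from the pooled one. The same replicate peak can overlap several pooled peaks. At Cpr47Eg, the replicate 5 peak of 376.2 overlapped the peaks of both IDR summits. At Cpr73D, the replicate 7 peak of 142.3 overlapped those of 404.6 and 231.2. The 66 weaker summits had a median of 67.8, and 51 of them (77.3%) overlapped a peak in both replicate lists, against 71.9% of all weaker peaks. IDR summits made up 24.1% of the 87 pooled summits at members, against 28.6% of the whole pooled list.

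The 5 weaker-only members with the highest values lay in clusters that also held bound genes. Edg78E, an ecdysone-dependent gene, had 164.7 in the pooled list, 89.0 in replicate 5 and 79.3 in replicate 7, at rank 8871 of the pooled list. The Cpr51A summit, at rank 8223, lay just inside the IDR list. Cpr65Av followed with 160.5, 62.2 and 126.8, Lcp65Ae with 146.3, 50 and 85.7, and TwdlL with 136.3, 74.2 and 62.7. Each of these had a peak in both replicate lists. Cpr65Aw had 130.9, Cpr62Ba 122.6, TwdlM 118.2, TwdlF 104.4, Lcp65Ad 101.9, Cpr49Ae 96.0, TwdlU 92.1 and Cpr78Ca 91.3 in the pooled list. Cpr62Ba, a gene with long introns, differed from the others in carrying 6 weaker summits and no IDR summit.

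The 107 members without an IDR summit lay a median of 6132 bp from the nearest one, with a range of 200 to 65255 bp from the end of the gene. Of them, 9 lay within 1000 bp, 45 within 5000 bp and 44 beyond 10000 bp. These distances were not set beside those of other unbound genes. They do not show whether cuticle protein genes lie unusually near to or far from binding. The nearest were Cpr65Aw, with an IDR summit 200 bp past the gene, Cpr65Au at 477 bp and TwdlM at 502 bp. All 3 had weaker summits of their own. Widening the TSS distance to 1000 bp added 6 members and gave 22 of 123, against 28.5% of protein-coding genes.

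Peaks were concentrated in some clusters and missing from others. Members on 1 arm at most 20 kb apart formed 17 clusters with 94 genes, and 29 genes stood alone. An IDR summit lay at a member in 7 clusters, weaker summits alone in 5, and no member of the remaining 5 had a summit in any list. Over all cluster spans there were 3.46 pooled summits per 10 kb, against 2.24 over the 6 arms. For IDR summits the density was 0.717 against 0.64, close to that of the arms. Of the 106 pooled summits in the spans, 58 lay outside the 2 fullest clusters. Bound were 11 of 94 clustered genes (11.7%) and 5 of 29 single genes (17.2%), with overlapping intervals of 5.99 to 20 and 5.85 to 35.8.

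**Figure D3:**
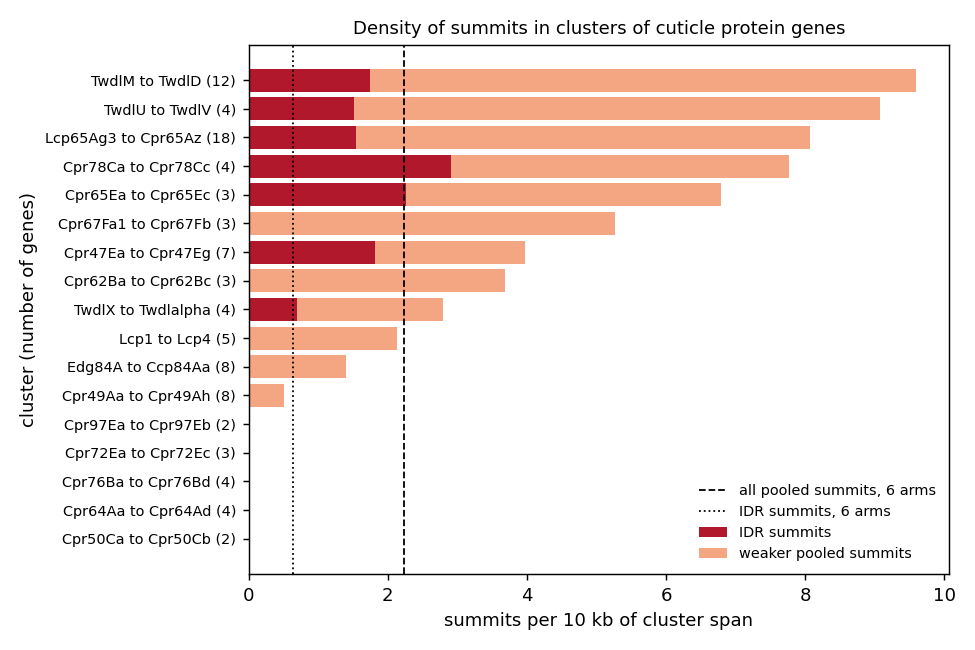
Summits per 10 kb in the span of each cluster, which includes 500 bp on both sides, with IDR summits in dark red and weaker pooled summits in light red. The dashed and dotted lines mark 2.24 pooled and 0.64 IDR summits per 10 kb over the 6 arms, and the TwdlM to TwdlD cluster is the densest at 9.59 pooled summits.

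The Tweedle cluster from TwdlM to TwdlD on 3R had 22 pooled summits in 22.9 kb, or 9.59 per 10 kb, against 2.24 over the 6 arms. Of its 12 genes, TwdlP, TwdlN and TwdlD had an IDR summit, 5 had weaker summits only, 2 a summit in 1 replicate list and 2 none. A further IDR summit, of 233.8, lay between genes 762 bp from the TSS of TwdlH. The smaller cluster from TwdlU to TwdlV had 9.07 pooled summits per 10 kb, with TwdlG as its bound gene. The Tweedle cluster on X, from TwdlX to Twdlalpha, was sparser, with 2.8 pooled summits per 10 kb and TwdlY as its bound gene.

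The largest cluster, from Lcp65Ag3 to Cpr65Az on 3L, holds 18 genes of the Lcp and Cpr families. It had 26 pooled summits in 32.2 kb, or 8.07 per 10 kb, with IDR summits at Lcp65Ag3 and Lcp65Ag2 and weaker summits only at 9 further genes. Its peaks were uneven. The strongest, of 437.5, lay 46 bp from the TSS of lncRNA:CR45421 and reached no cuticle protein gene. Of the other IDR summits without a member, one of 359.0 lay 710 bp from the TSS of Cpr65Aw and one of 198.3 lay 985 bp from that of Cpr65Av. Together the TwdlM to TwdlD and Lcp65Ag3 to Cpr65Az clusters held 19 of 30 members with a pooled summit (63.3%), against 24 of 93 other members (25.8%). For IDR summits the counts were 5 of 30 (16.7%) and 11 of 93 (11.8%).

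**Figure D4:**
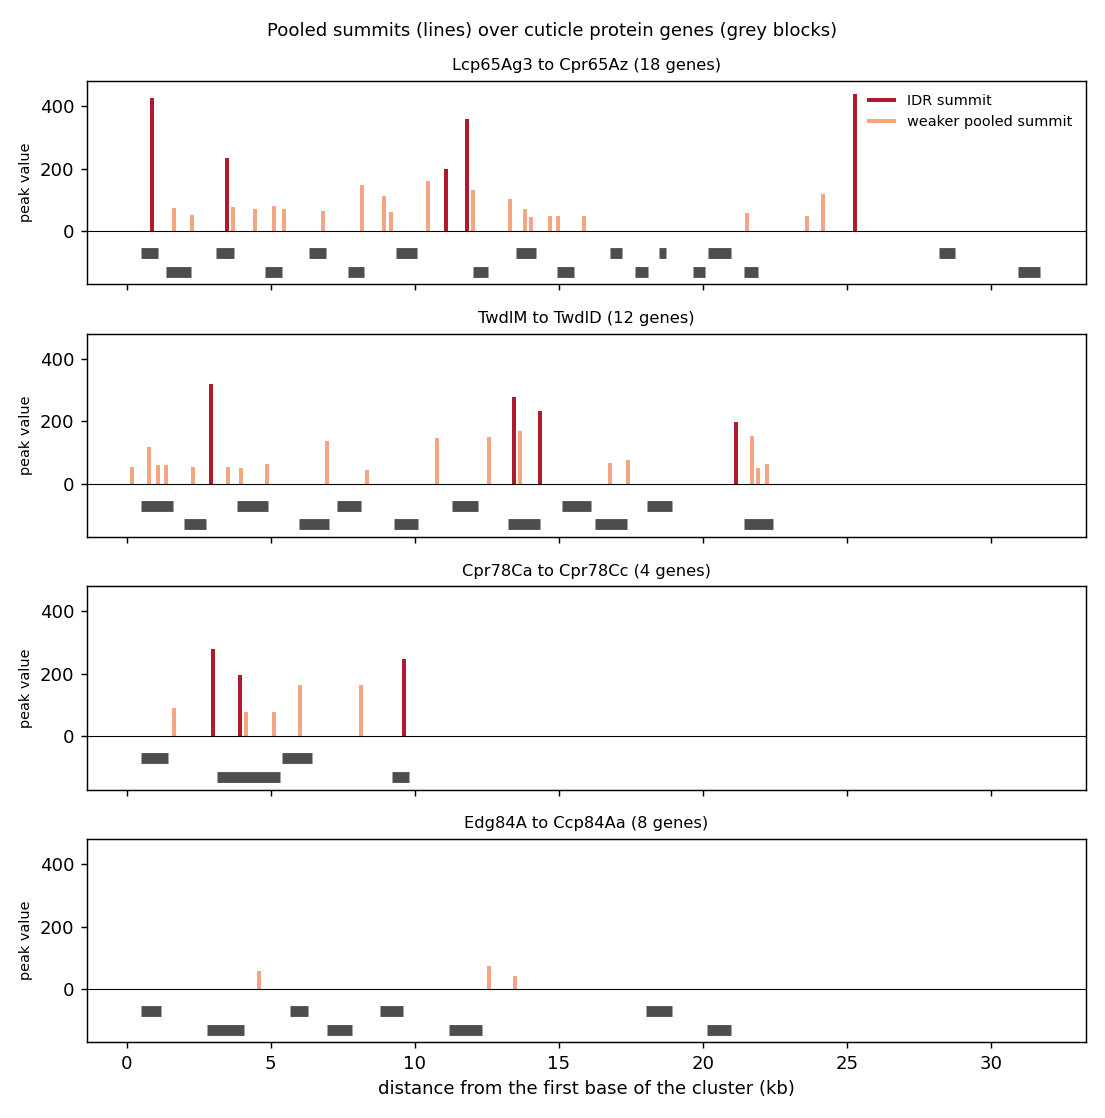
Value of each pooled summit (vertical axis, lines) by distance in kb from the first base of the cluster span (horizontal axis) in 4 clusters, with cuticle protein genes as grey blocks in 2 rows for legibility. IDR summits are dark red and weaker ones light red. The Edg84A to Ccp84Aa cluster had 3 weaker summits and no IDR summit, while the Lcp65Ag3 to Cpr65Az cluster had 26 pooled summits.

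The Cpr78C cluster was the one where every gene had a pooled summit. IDR summits lay at Cpr78Cb and Cpr78Cc, and weaker ones at Cpr78Ca and Edg78E. By contrast, the Edg84A to Ccp84Aa cluster of 8 genes on 3R, which encodes further Rebers-Riddiford proteins, had 3 weaker summits in 21.5 kb and no IDR summit within 18603 bp. The Cpr49Aa to Cpr49Ah cluster of 8 genes had 1 gene with a weaker summit. So did the Lcp1 to Lcp4 cluster of larval cuticle protein genes, whose 5 members include the pseudogene Lcp1Psi. No pooled summit lay in the spans of Cpr50Ca to Cpr50Cb, Cpr64Aa to Cpr64Ad, Cpr72Ea to Cpr72Ec, Cpr76Ba to Cpr76Bd or Cpr97Ea to Cpr97Eb. Some summits in the spans reached no cuticle protein gene. In the Cpr47Ea to Cpr47Eg span, 3 of 5 IDR summits had the TSS of TpnC47D, a muscle troponin C gene, as the nearest, the strongest of them with 427.0. Over all spans, 8 of 22 IDR summits reached no cuticle protein gene.

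The copies in the Lcp65A cluster limit what can be said of them. All 31-base words within 100 bp of the IDR summits of Lcp65Ag3 and Lcp65Ag2 occur elsewhere in the genome too. The genes are 88.1% identical, and the windows shown above share a run of 90 bases. Reads of up to 31 bases from there cannot be told apart by sequence, and the authors' placement of such reads is not stated in the labels or notes. Without such summits, which include the weaker one of 79.8 at Lcp65Ag1, 14 of 123 members had an IDR summit and 42 a pooled summit. Lcp65Ab1 and Lcp65Ab2, which are 99.3% identical and 93.3% of whose regions is repeated, had no summit in any list. There, a missing peak cannot be told apart from reads that were not placed. Repeats were not confined to this cluster. Over the set, more than 10% of the 31-base words in the region were repeated at 19 of 123 members. Outside the Lcp65A cluster these include Ccp84Aa (22.8%), Ccp84Ab (21.3%) and TwdlL (21.2%).

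Summits at cuticle protein genes often lay in coding sequence. This held for 7 of 21 IDR summits (33.3%, interval 14.6 to 57.0), against 174 of 8574 in the whole IDR list (2.03%) and 2.67% of IDR summits within 500 bp of a TSS. The 7 lay in Cpr47Eg, which had 2, and in Cpr65Ea, TwdlN, Cpr78Cc, Cpr57A and Cpr51A. Of weaker summits at members 24 of 66 (36.4%, interval 24.9 to 49.1) were in coding sequence, against 3.09% of all weaker summits. Coding bases made up 31.7% of the bases searched at protein-coding members, against 24.4% at all protein-coding genes.

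In members with 1 TSS and at most 3000 bp, 38.8% of the bases searched were coding, and 7 of 14 IDR summits (50%, interval 23.0 to 77.0) lay there. In all protein-coding genes of that size 53.8% of the bases were coding, and 56 of 823 IDR summits did (6.8%, interval 5.18 to 8.75). For weaker summits the shares were 44.0% (interval 30.0 to 58.7) and 19.0% (16.9 to 21.3). Summits at the short members thus lay in coding sequence about as often as the bases searched, while those at all short genes did so less often than the bases. Transcription of these genes and the background of the assay over them were not measured here, and their part in this was not tested.

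**Figure D5:**
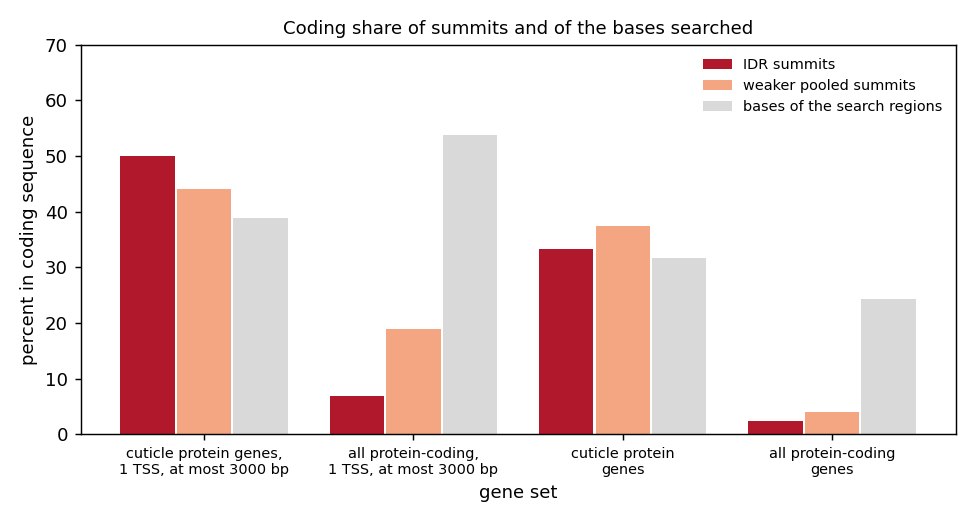
Percent of IDR summits, of weaker pooled summits and of the bases searched that lie in coding sequence, in cuticle protein genes and in all protein-coding genes, for genes of 1 TSS and at most 3000 bp (left) and for all (right). In the short cuticle protein genes 7 of 14 IDR summits and 38.8% of bases were coding, against 56 of 823 and 53.8% in all short protein-coding genes.

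Some coding summits lay close to the Rebers-Riddiford core. A short pattern of the core, chosen after the windows were seen, was found in 34 coding members, 21 of them Cpr, 12 Lcp and 1 Edg. It misses other forms of the sequence, and was in 0 of 7 Ccp84 proteins. Of 10 coding summits in such genes, 3 lay within 100 bp of the core (30.0%), against 53.2% of the coding bases of the genes that hold them and 42.0% of those of the 34 genes. Split by list, 2 of 3 IDR summits and 1 of 7 weaker ones did, numbers too small for a direction. The 3 were Cpr65Ea at 4 bp, Edg78E at 8 bp and Cpr78Cc at 26 bp, of which the first and last are shown above.

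Consensus sequences were searched on both strands within 100 bp of summits and in promoters of 301 bp, from 250 bp before to 50 bp after the first TSS. The 12 were GAGAG for GAGA factor, TATAAA for the TATA box, AACCGGTT for Grainyhead, AAGGTCA for a nuclear receptor site, TATCGATA for DRE and CACGTG for the E-box. The others were AGATAA for GATA factors, TGACGTCA for CRE, TGACTCA for AP-1, CAGGTAG for Zelda, ACNGTTA for Shavenbaby (Ovo) and GGTCACAC for M1BP. GAGAG was in 8 of 21 windows at members (38.1%), against 32.4% of all IDR windows. In windows at weaker member summits it was in 15.2%, against 27.1% of all pooled windows. ACNGTTA was in 5 of 21 (23.8%), against 6.41%, but in 2 of 66 weaker member windows (3.03%), against 5.63% of pooled windows. It was in 0 of 16 promoters of bound members and in 6.67% of all member promoters, against 13.4% of protein-coding promoters. AACCGGTT was in 1 of 21, at Cpr23B, against 0.711%. The counts are small, and a match is letters in a window and not a site.

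Promoters of these genes were rich in TATA boxes whether or not they had a peak. TATAAA lay between 40 and 20 bp upstream of the TSS in 56.7% of the 120 protein-coding members, against 7.79% of all protein-coding promoters. It did so in 10 of 16 bound members (62.5%), in 18 of 26 with weaker summits only (69.2%) and in 40 of 78 with no pooled summit (51.3%). The M1BP sequence was in 0 of 120 member promoters, against 7.71% of all, and DRE in 0.833%, against 9.37%.

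Other genes of cuticle formation were taken from lists by role, and these genes are longer than the cuticle protein genes. An IDR summit lay at 8 of 9 genes of chitin synthesis and assembly, whose median length is 7039 bp, with the highest values at the chitin deacetylases verm (1475.2) and serp (327.8) and at Gfat1 (610.3) and mmy (530.3), which make the precursor sugar. It lay at 4 of 9 genes of chitin-binding matrix proteins, obst-B (553.5), obst-E (442.2), obst-A (282.4) and Gasp (196.5). Of 11 sclerotization and pigment genes 5 had one, led by speck (822.5), Pu (470.7), ple (232.6) and Ddc (200.5), the last 2 being enzymes of dopamine synthesis.

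Among apical matrix proteins with a zona pellucida domain, 7 of 10 had an IDR summit, led by pio (752.0), dpy (632.6), qsm (258.2) and cyr (233.5). Among 10 chitinases, 2 had one, Cht7 (491.8) and Cht2 (401.3). Of 13 regulators of moulting and epidermal genes 11 had one, led by the nuclear receptor genes ftz-f1 (4136.8), Hr4 (1997.6), EcR (1606.4) and Hr3 (1532.5), in a list whose median length is 41689 bp. Against the 26.1% of all protein-coding genes, the exact intervals for the chitin synthesis list (51.8 to 99.7), the zona pellucida list (34.8 to 93.3) and the regulators (54.6 to 98.1) lie above it, and those for the other 3 lists include it. Within 500 bp of a TSS alone, the counts were 8 of 9, 4 of 10 and 10 of 13. Against the 21.3% of all protein-coding genes, the interval of the zona pellucida list then included the background (12.2 to 73.8). The median gene lengths of the chitin synthesis, zona pellucida and regulator lists were 7039, 15927 and 41689 bp, against 2166 bp for all protein-coding genes. No background of like length was set beside these lists. They were also chosen with earlier results of these data known, so the intervals describe the lists and do not test them. The CG12769 locus itself had 13 IDR summits with a highest value of 4425.3. The embryos carry a GFP fusion of this gene as a transgene, and its part in the signal at the locus was not tested.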

How the data were processed

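Peak lists in narrowPeak format on dm6 were deposited by the authors: 1 for each of the 2 replicates, 1 pooled and 1 IDR-thresholded. The signal value of each peak was deposited by the authors on a scale that is not stated. The deposited −log10 q-value was not used for ranking. The labels and notes state no aligner, peak caller, repeat handling or IDR threshold. Control data were not used here. Read counts were not used here, so depth is unknown and intervals cover counting error only. An age field that cannot hold an embryo's age was not used.

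Summits were matched to genes of Ensembl release 115 (BDGP6.54), and sequence was read from RefSeq's genome of the same assembly with Python 3.11.15, NumPy 2.4.6, pandas 2.3.3 and SciPy 1.17.1. Counts carry exact (Clopper-Pearson) 95% intervals, and no significance test was run. The assignment was tested on simulated summits. The 2 replicates are separate biological samples per the labels. Named genes were every bound member, the 12 weaker-only members with the highest value, the 3 unbound members nearest to an IDR summit, up to 4 genes per pathway list and CG12769; others were named after their values were seen. Members and lists were chosen with earlier results of these data known.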

Additional observations from a re-analysis of the deposited data

How the results depend on the processing

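The share of bound cuticle protein genes lay below that of all protein-coding genes in the main setting and in the 9 others run for both. It was 9.76% against 23.9% with a TSS distance of 200 bp, 17.9% against 28.5% with 1000 bp, 13.0% against 21.3% near a TSS only, 8.94% against 17.8% in the gene body only, 13.8% against 27.5% with any overlap of the peak and 10.6% against 21% with 1 gene per summit. In the strongest 2143 peaks of the IDR list, 2 members were bound (1.63%), against 11.2%: Cpr47Eg, in the 1 cluster left with a bound gene, and the single gene Cpr23B, with 2 summits in all. Beside genes with 1 TSS and at most 3000 bp, the background was 11.5%.

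The pooled share did not keep its side. It was 30.1% against 35.8% with 200 bp, 44.7% against 42.5% with 1000 bp, 31.7% against 34.9% near a TSS only, 27.6% against 28.2% in the gene body only, 41.5% against 41.1% with any overlap, 34.1% against 33.5% with 1 gene per summit, and 20.3% (25 members) against 32.2% in the 15000 strongest pooled peaks. Beside short genes with 1 TSS, the background was 23.1%. The cause was not tested.

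Leaving out each replicate gave 15 to 17 bound members, 20 to 23 IDR-level summits, 6 to 7 clusters and 26.4% to 26.8% of protein-coding genes at the IDR list's length, and 42 to 48 members and 39% to 41.6% of genes with all peaks. Of the 16 bound members, 13 were kept without replicate 5 and 13 without replicate 7; Cpr51A was lost in both. Joining clusters within 10 or 50 kb left 7 with a bound member, and protein-coding members alone gave 16. No paired analysis was possible because there is 1 group. Summits in repeated words and the nearest-TSS count were added after the data were seen.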
